A study of Mus musculus with 5 samples.

Results

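The collagen gene family was taken as every gene whose symbol consists of Col, digits, a and digits, which gave 44 genes of the 46983 in the count tables. Of these, 27 passed a filter on low counts and were tested, 24 averaged at least 1 CPM (counts per 1e+06 of the scaled library) over the 5 libraries, and 17 had a mean of at least 10 CPM. The symbol alone decides which genes belong, and the family was chosen for study with earlier results of these data known. RNA was sequenced from cells labelled as tumour-associated macrophages, sorted as CD45+ CD11b+ Ly6G- F4/80+ from tumours that EO771 cells, a murine breast carcinoma line, had formed orthotopically in C57/BL6 mice. In the Treg-ablated group (2 libraries) regulatory T (Treg) cells had been removed by diphtheria toxin (50 µg/kg, given in 2 doses) before the sort on day 4, and the control tumours (3 libraries) were left untreated. The allele that makes Treg cells sensitive to the toxin, the age of the mice and the number of mice per library were not given in the sources used here, and because the controls received no toxin, its own effect and that of Treg loss cannot be told apart. Since no label ties a library to a separate animal, p-values reflect only library-to-library spread, possibly technical.

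Collagens are secreted proteins of the extracellular matrix in which chains with glycine-rich repeats wind into a triple helix. Fibrillar collagens form the banded fibres of connective tissue. Network-forming collagens build the sheets of basement membranes, fibril-associated collagens with interrupted triple helices (FACIT) decorate the fibres, and collagen VI forms beaded microfilaments around cells. Fibroblasts and mural cells are the main source of interstitial collagen in tumours, while macrophages are better known for taking up and degrading it. Before secretion, chains are hydroxylated and folded in the endoplasmic reticulum, and after it their propeptides are cut off and the fibrils are cross-linked.

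Library totals ran from 13122668 to 20156835 counts, so that 3 counts correspond to between 0.1502 and 0.2263 CPM, a floor that covers counting error only. The label was checked against the genes of the gate and other markers. Ptprc, which encodes CD45, had 22.08 to 32.96 CPM and Itgam, which encodes CD11b, 12.22 to 19.01 CPM. Adgre1, which encodes F4/80, had 5.733 to 9.866 CPM and was itself lower after ablation (edgeR adjusted p = 0.002754). Ly6g, which the gate excludes, had at most 3 counts in any library. The first 3 genes were thus detected, which does not show what share of the RNA came from macrophages. By mean CPM the collagen gene Col3a1 ranked 2 among all genes. Markers of fibroblasts other than collagens were far from absent: none of 16 was at 0 in all libraries, and their summed level was 4089 to 4299 CPM in the Treg-ablated libraries and 4439 to 4590 CPM in the controls. The corresponding sums over 13 mature macrophage genes were 268.2 to 320.0 and 508.9 to 523.5 CPM. Such sums weigh the abundant genes most and cover different genes. Among the fibroblast markers, levels reached from 1.81 to 2.578 CPM for Fap to 910.7 to 1437 CPM for Fbn1. In bulk RNA, fewer cells of a type and less RNA per cell cannot be told apart, and the collagen values below are not assigned to a cell type.

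After Treg ablation most of the abundant collagen genes were lower, by 1.21-fold to 1.65-fold, while Col3a1, the collagen gene with the highest level, showed no such difference. The genes that fell were those of collagen I, all 3 tested chains of the beaded collagen VI, both multiplexins, Col5a1, Col5a3, Col4a2 and the fibril-associated Col12a1 and Col14a1. Col14a1 fell most, by 2.86-fold. Of the 27 genes tested with edgeR, 12 fell at an adjusted p under 0.05, 1 rose and 14 did not pass. These 12 are 44.4% of the members tested, whereas 12.3% of all 14580 genes tested passed as lower and 13.5% as higher. The median log2 fold change was -0.27 over the 27 genes and -0.01 over all genes tested. Groups of libraries did not overlap for 14 members with the Treg-ablated values below and for 3 with them above, against 25.6% and 26.9% of all genes tested. DESeq2 called 12 members lower and 0 higher, against 10.4% and 9.05% of the genes it gave an adjusted p. Without control replicate 2, edgeR called 8 members lower and 0 higher, against 3.84% and 5.62% of all genes.

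**Figure D1:**
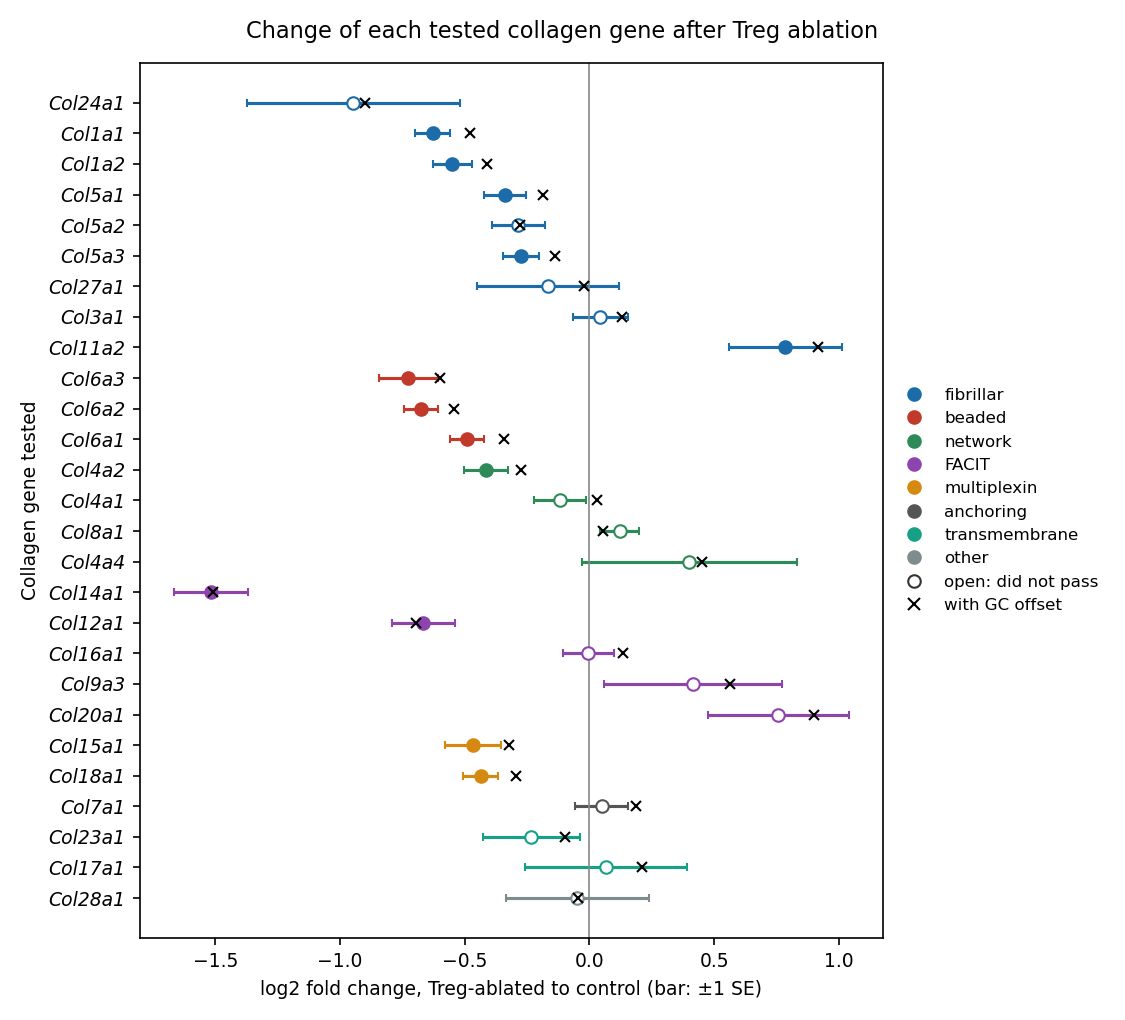
Log2 fold change (Treg-ablated to control, horizontal axis) of the 27 collagen genes tested, with bars of 1 SE, coloured by class. Filled points passed at an adjusted p under 0.05, open points did not, and crosses give the same value with an offset on GC content: 12 filled points lie left of 0 and 1, Col11a2, lies right of it.

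Over all genes tested, the direction of the calls differed with the GC content of the transcripts. Collagen transcripts are rich in G and C, and 19 of the 27 members lay in the highest of 3 equal bins of tested genes by GC content, which spanned 52.6% to 76.3%. In that bin 22.5% of all genes passed as lower and 5.45% as higher, against 3.3% and 23.1% in the lowest bin, and 10 of the 12 lower members belonged to it. With a per-library offset on GC content, 8 members were lower and 2 higher (Col11a2 and Col20a1), against 8.9% and 10.5% of all genes. The members that no longer passed as lower were Col5a1, Col5a3, Col15a1 and Col4a2 (adjusted p = 0.1731, 0.2451, 0.09071 and 0.07828). With this offset and without control replicate 2, a combination chosen after seeing the data, 4 members (Col14a1, Col6a2, Col1a1 and Col12a1) were lower and 0 higher, against 2.33% and 4.11% of all genes. Col1a2, Col6a1, Col6a3 and Col18a1 did not pass there (adjusted p = 0.0503, 0.05647, 0.06938 and 0.09575). Among the 17 members with at least 10 CPM, the log2 fold change had a Pearson r of 0.02 and a Spearman rho of 0.22 with GC content. These genes share libraries and are not independent points.

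Promoter sequences are shown for 4 members, because the genes Col4a1 and Col4a2 lie head to head and share a start region but differed in call, and because Col1a2 and Col3a1 are both fibrillar genes, of which one fell and one did not pass. The sequences are RefSeq windows on GRCm38.p6, from 250 bases before to 50 bases after the annotated start, read 5′ to 3′ on the strand of the gene, and such windows were found for 35 of the 44 members. They are chr8:11312777-11313076 on the minus strand for Col4a1, chr8:11312555-11312854 on the plus strand for Col4a2, chr6:4505368-4505667 on the plus strand for Col1a2 and chr1:45311288-45311587 on the plus strand for Col3a1. Capitals mark the TATA box TATAAA, the CCAAT box CCAAT and the GC box GGGCGG, searched on both strands.
Col4a1: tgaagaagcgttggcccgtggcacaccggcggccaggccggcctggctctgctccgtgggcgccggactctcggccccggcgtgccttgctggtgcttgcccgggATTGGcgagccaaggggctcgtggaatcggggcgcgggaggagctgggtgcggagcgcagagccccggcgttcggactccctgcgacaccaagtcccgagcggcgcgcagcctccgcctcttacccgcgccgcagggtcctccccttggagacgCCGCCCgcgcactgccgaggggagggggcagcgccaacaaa
Col4a2: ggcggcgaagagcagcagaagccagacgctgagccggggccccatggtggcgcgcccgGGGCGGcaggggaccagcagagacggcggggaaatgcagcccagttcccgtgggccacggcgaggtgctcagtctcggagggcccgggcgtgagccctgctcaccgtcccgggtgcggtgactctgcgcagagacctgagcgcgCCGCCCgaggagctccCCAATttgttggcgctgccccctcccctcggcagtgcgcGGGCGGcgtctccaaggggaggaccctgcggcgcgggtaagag
Col1a2: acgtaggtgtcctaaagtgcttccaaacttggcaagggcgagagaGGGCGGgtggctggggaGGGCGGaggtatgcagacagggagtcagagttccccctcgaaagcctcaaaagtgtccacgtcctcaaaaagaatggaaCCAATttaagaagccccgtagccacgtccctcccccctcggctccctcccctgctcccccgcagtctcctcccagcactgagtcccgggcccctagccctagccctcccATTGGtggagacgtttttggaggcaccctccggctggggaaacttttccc
Col3a1: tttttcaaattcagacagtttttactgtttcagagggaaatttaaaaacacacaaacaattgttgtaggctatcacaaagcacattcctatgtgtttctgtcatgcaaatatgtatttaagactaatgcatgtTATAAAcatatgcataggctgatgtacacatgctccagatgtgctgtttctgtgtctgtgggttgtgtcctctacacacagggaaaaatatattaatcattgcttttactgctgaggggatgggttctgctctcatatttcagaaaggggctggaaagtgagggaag

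The windows of Col4a1 and Col4a2 share 78 bases. Each of these 2 windows holds 1 CCAAT box, and they hold 1 and 3 GC boxes. The GC box of the Col4a1 window lies in the shared bases and is also 1 of the 3 in the Col4a2 window. That of Col1a2 holds 2 CCAAT boxes and 2 GC boxes and no TATA box, whereas that of Col3a1 holds 1 TATA box and neither of the others. GC content was 61% in the Col1a2 window and 37.7% in the Col3a1 window. The whole Col1a2 window lies inside the gene as counted, which begins at 4504814. Its annotated start thus differs from that of the counts. Sequence before the counted start was not searched, nor was any other sequence outside the window on either side. The lack of a TATA box thus holds for this window alone. The 35 members had 38 windows, of which 23 held a GC box, 13 a CCAAT box and 5 a TATA box. Among all 32851 windows the shares were 35.7%, 37.4% and 13.6%. These matches describe the letters only, wherever in the window they lie, and no binding was measured.

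Among the fibrillar collagens 4 of 9 tested genes fell, 1 rose and 4 did not pass, with a median log2 fold change of -0.29. Over all genes tested, 12.3% passed as lower and 13.5% as higher. Col1a1 (ENSMUSG00000001506, chromosome 11, 94936224 to 94953042, GRCm38), which encodes the α1 chain of collagen I, the main collagen of connective tissue, had 471.8 and 464.1 CPM in the Treg-ablated libraries and 717.1, 760.4 and 693.5 CPM in the controls. Both Treg-ablated values lay well below all controls. The log2 fold change was -0.63 (SE 0.07072, adjusted p = 0.000419). Its partner Col1a2 (chromosome 6, 4504814 to 4541544), which encodes the α2 chain, had 250.6 and 244.4 against 366.7, 388.6 and 332.0 CPM. The groups again did not overlap, and the log2 fold change was -0.55 (SE 0.07815, adjusted p = 0.001253). Of the 15 alternatives run singly, the test against a fold of 1.5 was the one under which these calls did not hold. With the GC offset and without control replicate 2 together, Col1a1 passed and Col1a2 did not (adjusted p = 0.02263 and 0.0503).

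Col3a1 (ENSMUSG00000026043, chromosome 1, 45311538 to 45349706), which encodes the chain of collagen III, a fibre of loose and repairing tissue, had 8700 and 9381 CPM in the Treg-ablated libraries and 9293, 9556 and 7467 CPM in the controls. The groups overlapped, with control replicate 3 the lowest and control replicate 2 the highest of all libraries. The log2 fold change was 0.04 (SE 0.1092, adjusted p = 0.8026). Per kilobase of exon Col3a1 averaged 904.6 CPM over the 5 libraries, against 94.68 CPM for Col1a1 and 25.47 CPM for Col1a2. The Col3a1 share of all collagen counts was 60.1% and 59.9% after ablation and 52.4%, 52.7% and 49.5% in the controls. Of its exon bases 1.44% are shared with the predicted gene Gm47302, which unstranded counting cannot separate.

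Collagen V joins collagen I in fibres and limits their width. Col5a1 (chromosome 2, 27886425 to 28039514) had 644.3 and 720.1 CPM after ablation against 877.4, 920.2 and 789.8 CPM in controls (log2 fold change -0.34, SE 0.08555, adjusted p = 0.01663). Col5a3 (chromosome 9, 20770050 to 20815067), which encodes a further chain of the same type, had 297.3 and 318.8 against 385.0, 379.2 and 353.1 CPM (log2 fold change -0.27, SE 0.07059, adjusted p = 0.01788). Neither gene showed overlap between the groups, but both calls rested on single libraries. Col5a1 did not pass without Treg-ablated replicate 1 or control replicate 2 (adjusted p = 0.08724 and 0.09578), and Col5a3 did not pass when Treg-ablated replicate 1 or either of control replicates 1 and 2 was left out (adjusted p = 0.09786, 0.05203 and 0.09341). Col5a2, on chromosome 1 next to Col3a1 with a gap of 24614 bases and the opposite strand, had 50.94 and 51.07 against 64.49, 69.06 and 52.53 CPM. Its log2 fold change of -0.29 (SE 0.106) did not pass (adjusted p = 0.07036), although all controls were above both Treg-ablated values. It passed as lower without control replicate 3, with a gene length offset and with a filter of 1 count in any library (adjusted p = 0.007078, 0.03566 and 0.006062).

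The remaining fibrillar genes were low. Col11a2, a chain of the cartilage collagen XI, was the only member that passed as higher. It had 3.53 and 5.657 CPM after ablation against 2.754, 2.454 and 2.717 CPM in controls. Both Treg-ablated libraries lay above the controls, and they differed from each other more than the controls did. The log2 fold change was 0.79 (SE 0.226, adjusted p = 0.02827). The call ended without Treg-ablated replicate 2 and without control replicate 2 (adjusted p = 0.2488 and 0.1157), and with DESeq2 (adjusted p = 0.08579). Among 8 cartilage and bone markers, Sox9, a transcription factor of cartilage and of several epithelia, was also higher, at 22.19 and 21.27 against 11.89, 13.12 and 10.87 CPM (adjusted p = 0.0007349), and the other 7 had at most 11 counts in any library. Their part in the Col11a2 difference was not tested. Col27a1 had 1.131 to 1.68 CPM over all libraries and Col24a1 0.3783 to 1.352 CPM, and neither passed. Col2a1 and Col11a1, the other cartilage collagens of this class, had at most 4 counts in any library and were not tested.

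All 3 tested chains of the beaded collagen VI fell. These chains assemble into one microfilament that links cells to the surrounding matrix. Col6a3 (ENSMUSG00000048126, chromosome 1, 90765923 to 90843971), which encodes the largest chain, had 707.5 and 897.1 CPM in the Treg-ablated libraries and 1422, 1406 and 1150 CPM in controls. Col6a2 (chromosome 10, 76595762 to 76623630) had 426.2 and 440.7 against 669.8, 717.9 and 690.3 CPM. Col6a1 (chromosome 10, 76708792 to 76726168), 85161 bases from Col6a2 and on the same strand, had 675.5 and 720.0 against 979.4, 986.3 and 975.8 CPM. For each of these genes both Treg-ablated libraries were below all controls. The log2 fold changes were -0.73 for Col6a3 (SE 0.1186, adjusted p = 0.002409), -0.68 for Col6a2 (SE 0.06879, adjusted p = 0.000269) and -0.49 for Col6a1 (SE 0.06871, adjusted p = 0.001177). These calls held with the GC offset and without any single library, but with that offset and without control replicate 2 Col6a1 and Col6a3 did not pass (adjusted p = 0.05647 and 0.06938). The class total fell in every comparison of libraries, from 2816 to 3111 CPM in controls to 1809 and 2058 CPM. Col6a4, Col6a5 and Col6a6, which encode chains that can take the place of Col6a3, had at most 6 counts in any library.

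Of the network collagens 1 of 4 tested genes was lower and 3 did not pass, against 12.3% of all genes tested that were lower. Col4a1 and Col4a2, the chains of the collagen IV found in nearly all basement membranes, are transcribed in opposite directions from starts on chromosome 8 whose exons overlap by 22 bases. Col4a2 (11312805 to 11449287) had 175.4 and 196.5 CPM after ablation and 259.8, 262.4 and 221.5 CPM in controls. Its groups did not overlap, and the log2 fold change was -0.42 (SE 0.08849, adjusted p = 0.007937), a call that ended without control replicate 2 (adjusted p = 0.05911). Col4a1 (11198423 to 11312826) had 289.9 and 324.5 against 365.2, 351.6 and 282.8 CPM. The groups overlapped through control replicate 3, and the log2 fold change was -0.12 (SE 0.1046, adjusted p = 0.4364). Col8a1 (chromosome 16, 57624258 to 57754737), a short-chain collagen of vessel walls, had 185.2 and 197.9 against 189.1, 177.2 and 161.8 CPM and did not pass (log2 fold change 0.12, adjusted p = 0.2774). Col4a4 did not exceed 0.836 CPM and did not pass, and Col4a3, Col4a5, Col4a6, Col8a2 and Col10a1, with at most 9 counts in any library, were not tested.

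The fibril-associated collagens differed among themselves. Col14a1 (ENSMUSG00000022371, chromosome 15, 55307750 to 55520803), which binds fibres in skin and tendon and is often used as a fibroblast gene, had 3.467 and 4.601 CPM after ablation and 11.49, 11.17 and 11.77 CPM in controls. The controls lay close together and far above both Treg-ablated libraries. The log2 fold change was -1.52 (SE 0.1488, adjusted p = 0.000229), and it was the only member called when tested against a fold of 1.5, as were 0.158% of all genes in that direction and 0.672% in the other, where 0 members passed. Col12a1 (chromosome 9, 79598991 to 79718831), its close relative in dense tissue, had 52.77 and 65.02 against 100.6, 101.5 and 77.4 CPM, with no overlap. Its log2 fold change was -0.67 (SE 0.1259, adjusted p = 0.004449), and the call held without any single library. Col16a1 (chromosome 4, 130047840 to 130099283), which had the highest level per kilobase of exon in this class at 50.16 CPM, had 324.2 and 352.0 against 368.0, 363.1 and 285.5 CPM. Its groups overlapped and it did not pass (log2 fold change -0.0039, SE 0.104). Col20a1 and Col9a3 were each higher in both Treg-ablated libraries than in all controls, at 1.576 and 1.81 against 0.8062 to 1.102 CPM and at 0.8196 and 0.7543 against 0.5509 to 0.627 CPM. Neither passed (adjusted p = 0.07157 and 0.4515), although Col20a1 passed with the GC offset (adjusted p = 0.047). Col9a1, Col9a2, Col19a1 and Col22a1 had at most 3 counts in any library.

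Both multiplexins, basement membrane collagens whose C-terminal pieces include endostatin, fell. Col18a1 (chromosome 10, 77052178 to 77166548), the precursor of endostatin, had 1042 and 1075 CPM after ablation and 1444, 1467 and 1383 CPM in controls. All controls were above both Treg-ablated values by more than the spread within either group, and the log2 fold change was -0.44 (SE 0.07029, adjusted p = 0.002282). Col15a1 (chromosome 4, 47208161 to 47313167) had 16.2 and 20.29 against 25.6, 26.34 and 23.27 CPM (a log2 difference of -0.47, SE 0.1139, adjusted p = 0.01451). The Col15a1 call ended without Treg-ablated replicate 1 and without control replicate 2 (adjusted p = 0.103 and 0.08125), while that of Col18a1 held without any single library. Col7a1 (chromosome 9, 108953586 to 108984875), which encodes the anchoring fibrils under epithelia, had 146.9 and 165.6 against 163.3, 161.9 and 127.1 CPM and did not pass (log2 fold change 0.05, adjusted p = 0.7643). The transmembrane collagen Col23a1 had 3.909 and 6.11 against 5.375, 6.26 and 5.713 CPM, and Col17a1 and Col28a1 lay between 0.7664 and 1.828 CPM. None of these passed. Col25a1 had 0 counts in every library, which allows up to 0.1502 to 0.2263 CPM, depending on the library, and Col13a1 and Col26a1 had at most 3 counts.

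**Figure D2:**
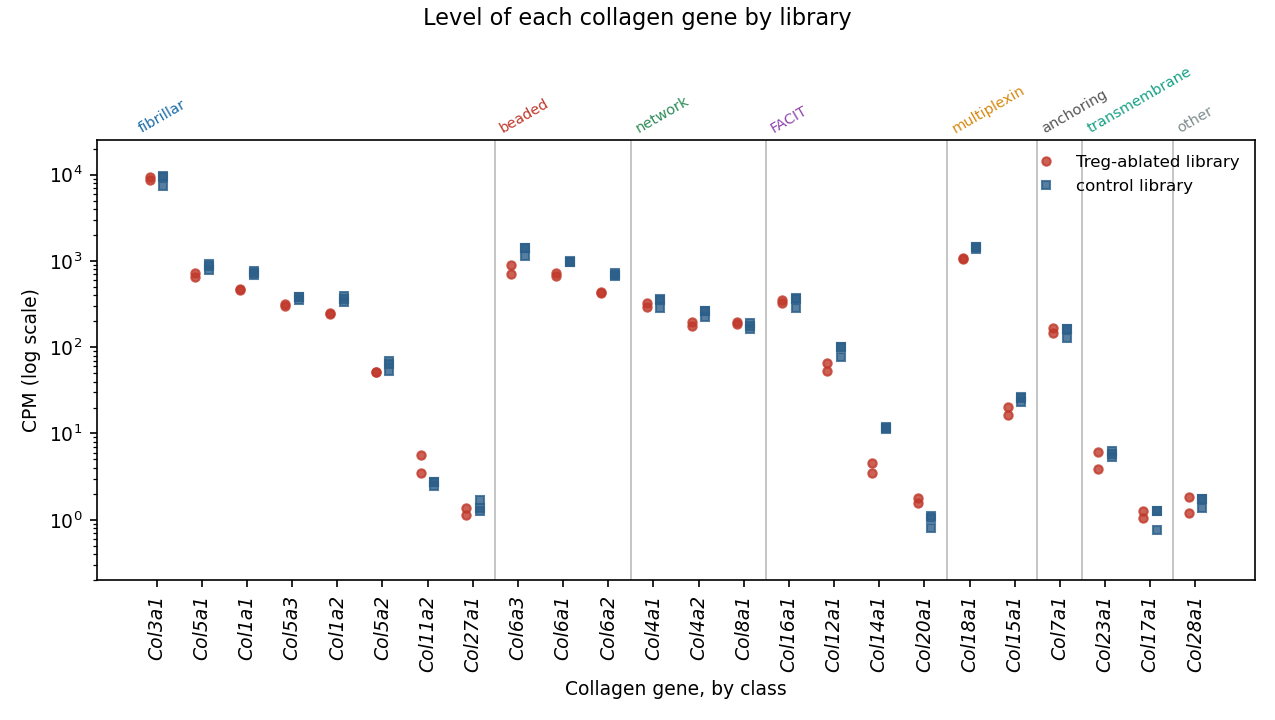
CPM on a log scale (vertical axis) of the 24 collagen genes with a mean of at least 1 CPM, ordered by class, with 1 red circle per Treg-ablated and 1 blue square per control library. Circles lie below all squares for Col1a1, Col1a2, Col6a1, Col6a2, Col6a3, Col12a1, Col14a1, Col18a1 and others, and overlap with the squares for Col3a1, Col16a1 and Col7a1.

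Summed over all 44 genes, collagen transcripts made up 1.45% and 1.58% of the library after ablation and 1.77%, 1.8% and 1.49% in the controls, so that the groups overlapped. Without Col3a1 the sums were 5777 and 6278 CPM against 8428, 8568 and 7628 CPM and did not overlap, with a ratio of 0.734 between the group means. The ratio was 0.645 for the beaded class, 0.739 for the multiplexins and 0.738 for the fibrillar class without Col3a1. It was 0.905 for the network class and 0.907 for the FACIT class, both with overlapping groups, and 0.968 for the fibrillar class with Col3a1. Sums over members weigh the abundant genes most, and they were not tested.

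**Figure D3:**
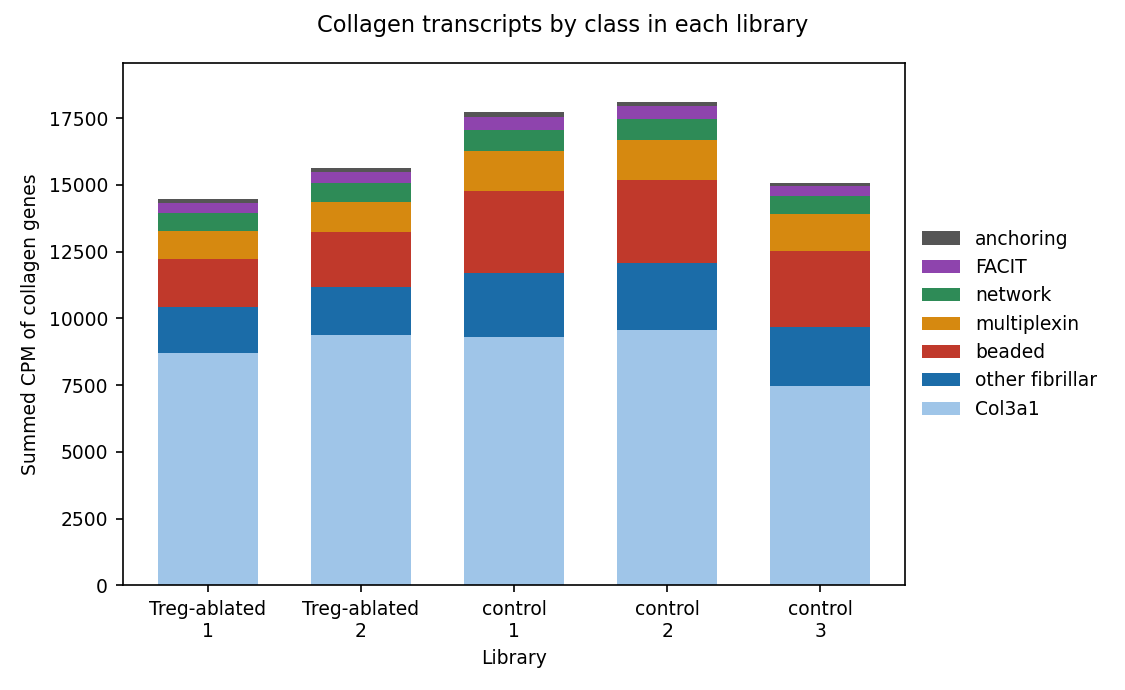
Summed CPM of collagen genes in each of the 5 libraries, stacked by class from 0, with Col3a1 shown apart from the other fibrillar genes; the transmembrane class and Col26a1 and Col28a1, each under 10 CPM, are left out. The beaded part is 1809 and 2058 CPM in the Treg-ablated and 2816 to 3111 CPM in the control libraries, while the Col3a1 part overlaps between the groups.

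Pairs of chains, of which all but Col3a1 with Col1a1 belong to 1 collagen type, were compared by the ratio of their counts per kilobase of exon within each library, which does not depend on library scaling. The ratio of Col3a1 to Col1a1 was 12.3 and 13.5 after ablation and 8.66, 8.4 and 7.2 in controls. The ratio of Col4a1 to Col4a2 was 1.6 in both Treg-ablated libraries and 1.36, 1.3 and 1.24 in controls, and that of Col6a1 to Col6a2 was 3.01 and 3.11 against 2.78, 2.61 and 2.69. In these 3 ratios the Treg-ablated libraries lay above all controls. The ratio of Col1a1 to Col1a2 was 3.56 and 3.6 against 3.7, 3.7 and 3.95, lower in both Treg-ablated libraries by a mean factor of 0.945. Col5a1 to Col5a2 overlapped, at 14.3 and 15.9 against 15.4, 15.1 and 17.0. No test was made of these ratios. Their absolute size depends on the gene length used: the exon length in the files joins the exons of all transcripts (12426 bases for Col1a2, whose longest coding transcript has 5348), and with the longest coding transcript the ratio of Col1a1 to Col1a2 in controls was 1.8 in place of 3.79. The ratio of Col8a1 to Col8a2 rested on 1 to 8 counts of Col8a2 and is not interpreted.

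**Figure D4:**
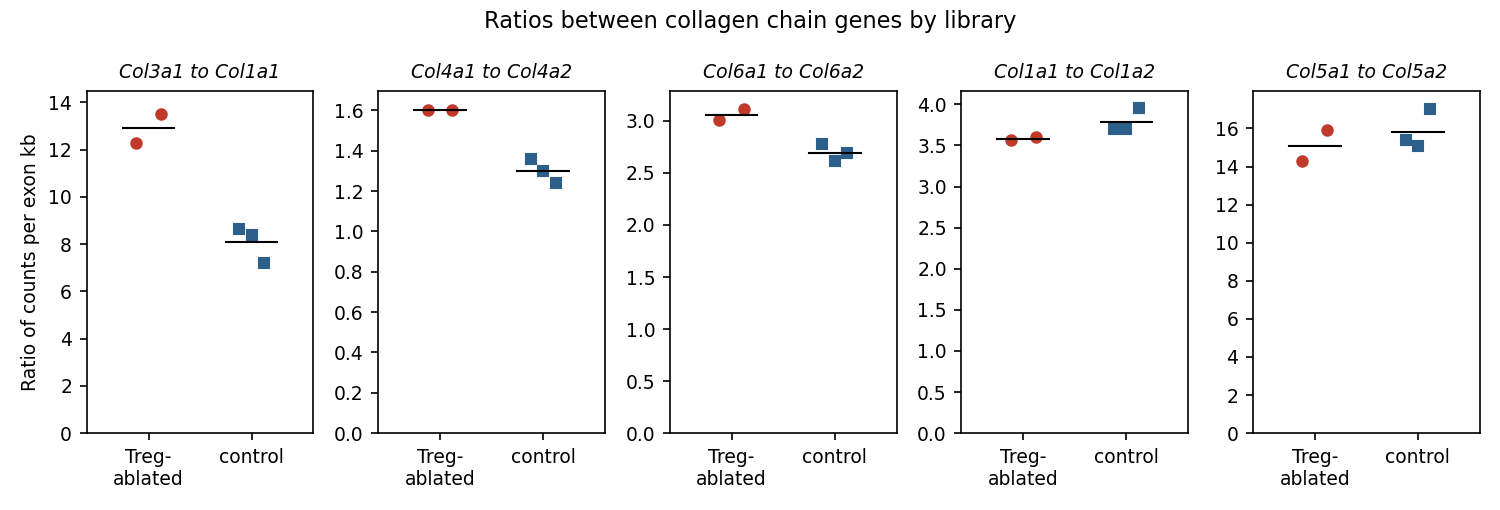
Ratio of counts per kilobase of exon between pairs of collagen chain genes (vertical axes from 0), with 1 point per library and a line at the group mean. Treg-ablated points lie above all control points for Col3a1 to Col1a1, Col4a1 to Col4a2 and Col6a1 to Col6a2, below them for Col1a1 to Col1a2, and among them for Col5a1 to Col5a2.

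Genes that make, modify, bind or degrade collagen passed as lower in a larger share than all genes tested, and as higher in a like share. Over 4 lists with 54 genes, 47 were tested, of which 14 were lower, 7 higher and 26 did not pass. These are 29.8% lower and 14.9% higher, against 12.3% and 13.5% of all genes, and with the GC offset 9 were lower, against 8.9% of all genes. Of 21 tested genes of hydroxylation and chaperones 7 were lower and 3 higher, with a median log2 fold change of -0.14. Serpinh1, which encodes the collagen chaperone HSP47, had 711.7 and 660.8 CPM after ablation and 813.2, 907.4 and 891.5 CPM in controls (a log2 difference of -0.34, SE 0.07671, adjusted p = 0.01002). Fkbp10, an isomerase that works with it, fell 1.34-fold, P3h1, a prolyl 3-hydroxylase, 1.33-fold, and Plod1, a lysyl hydroxylase, 1.25-fold. The genes of this list that rose include P4ha3 and P4ha1, catalytic subunits of prolyl 4-hydroxylase, and Plod2, the lysyl hydroxylase of the collagen ends. P4ha3 had 14 and 12.97 against 8.801, 6.961 and 7.037 CPM (log2 fold change 0.84, SE 0.1317, adjusted p = 0.002064), Plod2 rose 1.26-fold and P4ha1 1.19-fold. The calls of Fkbp10, P3h1 and P4ha3 held without any single library. Without control replicate 2, Serpinh1, Plod1, Plod2 and P4ha1 did not pass (adjusted p = 0.06757, 0.05272, 0.06567 and 0.08562), and without Treg-ablated replicate 2, Serpinh1, Plod2 and P4ha1 did not (adjusted p = 0.05209, 0.0502 and 0.08665). With the GC offset Serpinh1 and P4ha1 did not pass either (adjusted p = 0.05109 and 0.07484).

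Of 10 tested genes that process propeptides or cross-link fibrils 4 were lower and 1 higher, against 12.3% and 13.5% of all genes. The lysyl oxidase genes Loxl1, Loxl2 and Loxl4 fell 1.45-fold, 1.34-fold and 1.3-fold, and Pcolce2, an enhancer of propeptide cleavage, rose 1.3-fold, from 33.46, 33.45 and 33.86 CPM in controls to 44.95 and 42.09 CPM. Lox itself had 18.79 and 21.35 against 25.26, 24.79 and 20.06 CPM and did not pass (adjusted p = 0.1849), nor did Bmp1, the main C-propeptide protease (log2 fold change -0.17, adjusted p = 0.08663). Lox passed as lower without control replicate 3 (adjusted p = 0.04893). Loxl1 did not pass without Treg-ablated replicate 2 or control replicate 2 (adjusted p = 0.0521 and 0.06465), nor did Loxl4 without Treg-ablated replicate 1 or control replicate 2 (adjusted p = 0.1304 and 0.0909). Loxl2 was lost when Treg-ablated replicate 2 or either of control replicates 1 and 2 was left out (adjusted p = 0.1574, 0.08514 and 0.0748). Loxl2 and Loxl4 were also lost with the GC offset (adjusted p = 0.06827 and 0.155), and Loxl2 with DESeq2 (adjusted p = 0.08101). The Pcolce2 call held without any single library.

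Among collagen receptors 2 of 9 tested genes were lower and none passed as higher, against 12.3% and 13.5% of all genes. Mrc2, an endocytic receptor that takes up collagen fragments, had 100.6 and 107.3 against 143.2, 147.7 and 133.1 CPM (a log2 difference of -0.44, SE 0.07236, adjusted p = 0.002365). Ddr2, a receptor kinase for fibrillar collagen, fell 1.29-fold (adjusted p = 0.02542), and leaving out Treg-ablated replicate 1 or either of control replicates 1 and 2 ended that call (adjusted p = 0.1275, 0.06839 and 0.1013). Ddr1, its epithelial relative, and Itga1, an integrin subunit that binds collagen IV, did not pass (log2 fold changes -0.19 and -0.48, adjusted p = 0.07955 and 0.06618); Itga1 passed with the GC offset (adjusted p = 0.03454). Among 7 tested genes of collagen degradation 1 was lower and 3 were higher. The lower share of 14.3% lay near the 12.3% of all genes, of which 13.5% were higher. Mmp2, a gelatinase made mainly by stromal cells, fell from 39.17, 42.52 and 41.03 CPM in controls to 22.82 and 22.25 CPM (a log2 difference of -0.86, SE 0.08196, adjusted p = 0.000202). Mmp9, the other gelatinase, rose 1.38-fold, Ctsk, the collagen-degrading cathepsin K, 1.25-fold, and Mmp14, a membrane-bound collagenase, 1.17-fold. The Mmp2 and Mrc2 calls held without any single library. Mmp14 and Ctsk did not pass without at least 4 of the 5 libraries taken singly, with adjusted p of 0.05702 to 0.1417 and of 0.06318 to 0.1554 where they were lost, and Mmp9 did not pass without Treg-ablated replicate 1 or control replicate 1 (adjusted p = 0.0561 and 0.05383). Ctsk was also lost with DESeq2 (adjusted p = 0.1459).

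**Figure D5:**
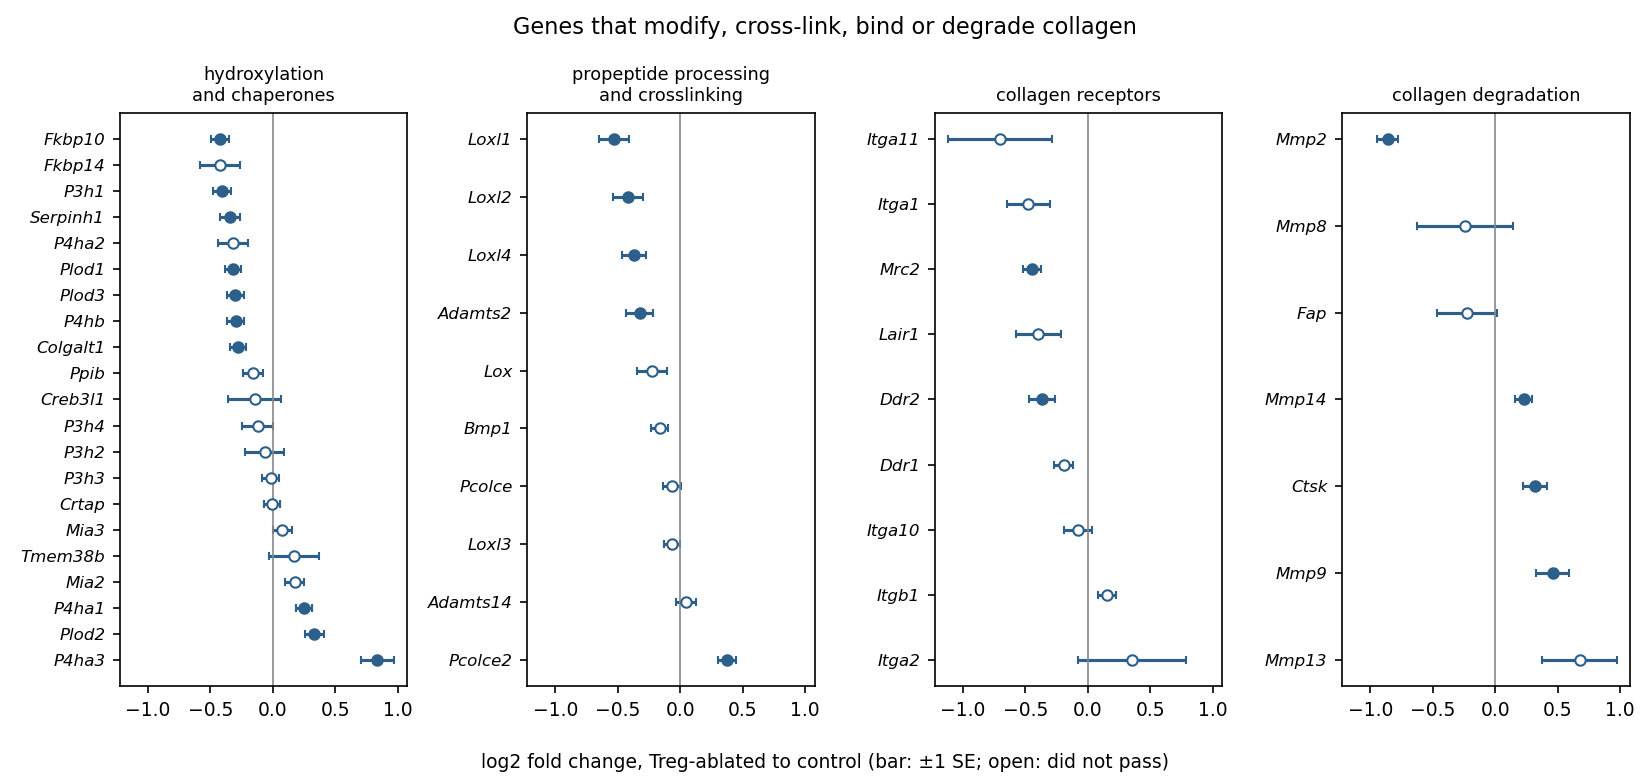
Log2 fold change (Treg-ablated to control, horizontal axes) with bars of 1 SE for the 47 tested genes of 4 lists around collagen synthesis and turnover; filled points passed at an adjusted p under 0.05. Points on both sides of 0 are filled in the first list, where 7 genes were lower and 3 higher, and Mmp2 is the lower and Mmp14, Ctsk and Mmp9 are the higher genes of the degradation list.

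Marker lists of other cell types were measured beside the collagen genes. Of all genes tested, the background for every list here, 12.3% were lower and 13.5% higher. Of the 16 fibroblast markers without collagens 5 were lower, 2 (Dcn and Twist1) were higher and 9 did not pass. The lower genes were Pi16, Pdgfrb, Postn, Fbn1 and Gsn, with log2 fold changes of -1.25, -0.90, -0.61, -0.41 and -0.38. Those of Dcn and Twist1 were 0.40 and 0.54. Dcn had 986.6 and 990.1 CPM after ablation against 719.0, 748.5 and 776.0 CPM in controls. The summed CPM of this list did not overlap between the groups (above), though its genes moved in both directions. The mature macrophage list had 10 of 13 genes lower. The 8 mural markers summed to 19.35 and 21.8 CPM at the ends of the Treg-ablated range and to 22.29 to 24.04 CPM in controls, with 1 of 7 tested genes lower, and the 9 endothelial markers summed to 18.93 to 21.12 and 20.9 to 23.72 CPM, which overlap. The 11 epithelial and mammary tumour markers summed to 260.9 to 303.6 and 294.5 to 319.9 CPM, most of it Krt18 and Krt8, and neither of these passed (adjusted p = 0.2438 and 0.5052). The T and NK cell list rose in 9 of 12 genes, from 20.09 to 26.14 CPM in sum to 81.26 to 84.71 CPM. No marker of these lists was at 0 in all 5 libraries. Their part in the collagen differences was not tested.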

How the data were processed

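Gene counts of 5 libraries (2 Treg-ablated, 3 control, grouped by sample title) were used. The authors deposited counts of fragments per gene, made per the file headers by featureCounts 1.6.2 with a filtered Ensembl 83 annotation of GRCm38 over exons and with no strand option. DESeq2 1.16.1, Trimmomatic 0.33, FastQC 0.11.5 and Subread 1.6.2 appear in the submitters' processing notes. Ensembl identifiers gave a symbol for 46488 of 46983 genes. Replicates differed beyond sampling noise (chi-square per degree of freedom 3.884 to 7.241) and none was merged.

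Genes kept by filterByExpr (14580) entered a quasi-likelihood F test (edgeR 4.0.16, R 4.3.3) after TMM scaling, with Benjamini-Hochberg adjustment over all genes and a threshold of 0.05. CPM are counts over the TMM-scaled library size times 1e+06, and an SE is the log2 fold change divided by the root of F. Members with a mean of at least 10 CPM or a call are given by library. The 4 smallest p per pathway list and 8 fixed genes are named. The members and lists were chosen with earlier results of these data known. Alternatives were other scalings and filters, DESeq2 1.42.0, limma 3.58.1 (voom), a fold test, a replicate block, offsets on GC content (GENCODE M21 transcripts) and gene length, and leaving out each library. Counts of 14320 genes were simulated without a trend on GC content, although the data show one. Changed genes were drawn from those of at least 1 CPM. On these counts the test recovered 78.1% of genes changed 1.5-fold and 89.9% of those changed 2-fold. Of its 199 calls, 20 were unchanged genes. These rates may not hold where GC content shifts the calls.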

Additional observations from a re-analysis of the deposited data

How the results depend on the processing

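For the 12 collagen genes called lower, 156 of 180 values under 15 alternatives each kept call and direction, 24 lost the call and 0 reversed. Leaving out 1 library at a time gave 8 to 13 collagen genes lower and 0 to 1 higher, 2 to 5 fibrillar genes lower and 0 to 1 higher, 0 to 1 network genes lower, 4 to 15 pathway genes lower and 3 to 5 higher, and 554 to 1538 of all genes lower and 812 to 1687 higher; the lowest counts of lower genes came without control replicate 2, shared in the fibrillar class with Treg-ablated replicate 1. Leaving out a Treg-ablated library leaves a lone sample, whose variation is taken to equal that of the controls. Tested against a fold of 1.5, 1 collagen gene was lower and 0 higher (0 fibrillar lower and 0 higher, 0 network, 0 beaded, 1 FACIT lower), 0 pathway genes were lower and 0 higher, and 23 of all genes were lower and 98 higher. The GC offset gave 2 collagen genes higher, 2 fibrillar and 0 network genes lower, 1 FACIT gene higher and 9 pathway genes lower. Chosen after seeing the data, the GC offset without control replicate 2 gave 4 collagen genes lower and 0 higher, against 2.33% and 4.11% of all genes. DESeq2 called 0 collagen genes higher (0 fibrillar) and 1215 of all genes higher. With the replicate block (numbers of the titles, which nothing ties to shared animals; 12 collagen genes lower, 1 higher) 8 pathway genes were lower and 2 higher, Col5a3, Plod1, Serpinh1, Mmp9, Ctsk, Mmp14, P4ha1 and Plod2 no longer passed (adjusted p = 0.05226, 0.05591, 0.05829, 0.07381, 0.1661, 0.2552, 0.1297 and 0.05109), Col5a2 passed (0.01501), and 1116 of all genes were lower and 1296 higher; same-numbered libraries had deviations correlated at -0.574 and 0.00663. With 2 Treg-ablated libraries, deviations from their group mean are mirror images, so these 2 correlations are not independent checks. Library size alone moved the share of higher calls from 52.4% to 58.0% and the fold test to 81.0%. No scaling moved the median of all genes by over 0.1.

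Members near 0 that changed sign, none passing on either side, were as follows. Col16a1 had 0.1333 with the GC offset, 0.0002969 with a filter of 1 CPM in 2 libraries, 0.01473 with the gene length offset, 0.01706 with library size alone, 0.00521 with limma-voom and -0.1128 to 0.06166 without 1 library. With the block Col7a1 had -0.05953, Col3a1 -0.06091 and Col17a1 -0.1276, and Col4a1 had 0.03014 with the GC offset. Without 1 library Col7a1 had -0.05797 to 0.1334, Col3a1 -0.06008 to 0.1087, Col17a1 -0.1143 to 0.184, Col28a1 -0.3979 to 0.2028 and Col23a1 -0.5682 to 0.07091. The cause was not tested. Chain ratios in controls, as counts and with the longest coding transcript (chosen after seeing the data), were 2.0 and 1.8 for Col1a1 to Col1a2, 14 and 11 for Col5a1 to Col5a2, 1.42 and 1.61 for Col6a1 to Col6a2, and 12.1 and 12.9 for Col3a1 to Col1a1, by construction from the lengths.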
